A study of Mus musculus
Rattus norvegicus and Mus musculus with 6 samples.

Results

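The tissue inhibitors of metalloproteinases Timp1, Timp2 and Timp3 were examined in lin-/c-kit+ hematopoietic stem cells (SC) from mouse bone marrow. Timp2 and Timp3 are 2 of the 8102 genes that probe names of the mouse bead array identify by gene ID, zeros in front included, and 1 further probe was taken for Timp1. Their signals came from 4 of the 46628 probes, with 1 probe for Timp1, 1 for Timp2 and 2 for Timp3. The genes were selected on their log2 differences between coculture and monoculture, which ran in opposite directions. These differences are therefore given as a description, and no test of them is read.

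RNA came from 3 cultures of SC with neonatal rat ventricular cardiac myocytes (NRVCM) of Wistar rats and from 3 cultures of SC alone. The SC were taken from tibia and femur of C57Bl/6 mice labelled male, and the NRVCM were labelled female. Both cultures lasted 48 h, after which the SC, marked with a fluorescent dye, were sorted in repeated steps by flow cytometry. Each of the 6 RNA samples came from its own preparation and culture, and no further treatment or allele is given for either group. A monoculture well received more SC than a coculture well, so that the density of SC and the presence of NRVCM cannot be told apart. Mouse probes read rat RNA only where it cross-hybridizes. The arrays address bulk RNA, in which fewer cells of a type and less RNA per cell cannot be told apart.

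TIMP proteins are secreted and block the active site of matrix metalloproteinases, the zinc enzymes that cut collagen and other parts of the extracellular matrix. Timp1 inhibits most secreted matrix metalloproteinases and also acts on cell survival through surface proteins. Timp2 inhibits these enzymes and, with the membrane-bound Mmp14, also takes part in the activation of Mmp2. Timp3 stays bound to the matrix and in addition inhibits the sheddase Adam17, which releases TNF from cell surfaces. In blood and bone marrow, macrophages, megakaryocytes and stroma are among the cells known to make TIMPs.

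Signals are given on the log2 scale of the deposited values, on which 1 unit is a doubling. For background, each array was given a limit at its highest signal among 22 probes of reporter genes and vectors, between 6.75 and 6.86, and this choice was made with the values known. Levels of different probes are not set against each other, since each probe has its own efficiency. Pearson's r between arrays over all probes was 0.987 to 0.991 among cocultures, 0.990 to 0.993 among monocultures and 0.967 to 0.977 between the groups. Some sex-linked probes went against the label of the mice on 5 of the 6 arrays. Eif2s3y, a gene on the Y chromosome, had a signal of 8.93 on coculture replicate 2 and of 6.33 or less on the other 5 arrays. Xist, the transcript of the inactive X chromosome, had a signal of 6.84 on coculture replicate 2 and of 8.21 to 8.80 on the others. Kdm5d, also on the Y chromosome, exceeded the limit only on coculture replicate 2. Probes of the Y genes Ddx3y and Uty, and a second Xist probe, were at background on all arrays and do not tell them apart. Timp1 lies on the X chromosome, so the differences are also given without coculture replicate 2.

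The Timp1 probe was higher in cocultured SC, and the Timp2 probe and the brighter Timp3 probe were lower. In cocultured SC, Timp1 had log2 signals of 7.65, 8.90 and 8.21 in replicates 1, 2 and 3, against 6.79, 6.82 and 6.84 in monocultured SC. The groups did not overlap, and the lowest coculture lay 0.81 above the highest monoculture. The share of all probes whose groups do not overlap was not counted, so nothing is read from such a separation here or below. The means were 8.25 ± 0.63 in coculture and 6.82 ± 0.02 in monoculture (SD, n = 3 each), a difference of 1.44 (SE 0.36) or 2.71-fold. The SE of each Timp probe comes from its own replicates. All 3 monoculture signals were close to background, at 0.02 to 0.09 above the limit of their arrays, and the cocultures were 0.86 to 2.15 above it. With the limit raised by 0.5, every monoculture was at background for Timp1, and coculture was at least 1.98-fold higher.

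The probe used for Timp1, scl55015.6.1_13-S, carries no gene ID. It has its name because its fold change and adjusted p are those listed for Timp1 in the study's supplementary list of rises, so its rise is no independent result. Numbers without zeros in front, as in this probe name, followed chromosome order and not gene IDs. This held for 39 of 39 other probes named through the same list. The probe scl21857.5.1_13-S carries the number of the Timp1 gene ID without a zero, but by its place it lies between Adamtsl4 and Gbp3 on chromosome 3. It was therefore not taken for Timp1, and its signals of 13.42 to 13.91 differed between the groups by 0.21.

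Timp2 had log2 signals of 8.67, 9.60 and 8.02 in cocultured SC, against 10.09, 10.04 and 10.26 in monocultured SC. All 3 cocultures were below all 3 monocultures, with 0.44 between the nearest pair, coculture replicate 2 and monoculture replicate 2. The means were 8.76 ± 0.79 in coculture and 10.13 ± 0.12 in monoculture (SD, n = 3 each), a difference of -1.37 (SE 0.46) or 2.58-fold lower. The Timp2 probe was well above background in every sample.

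The 2 Timp3 probes differed in brightness. The brighter Timp3 probe had log2 signals of 7.50, 7.69 and 8.13 in cocultured SC, against 10.30, 9.65 and 8.72 in monocultured SC. The groups again did not overlap, with a gap of 0.60 between coculture replicate 3 and monoculture replicate 3. The means were 7.77 ± 0.32 in coculture and 9.56 ± 0.79 in monoculture (SD, n = 3 each), a difference of -1.79 (SE 0.49) or 3.45-fold lower. The dimmer Timp3 probe had 6.24, 6.34 and 6.22 in cocultured SC, against 6.85, 6.41 and 6.44 in monocultured SC. It was at or under the background limit on all 3 coculture arrays and above it only on monoculture replicate 1, the array on which the brighter probe also had its highest signal. Its difference of -0.31 (SE 0.15) therefore gives no level for Timp3.

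**Figure D1:**
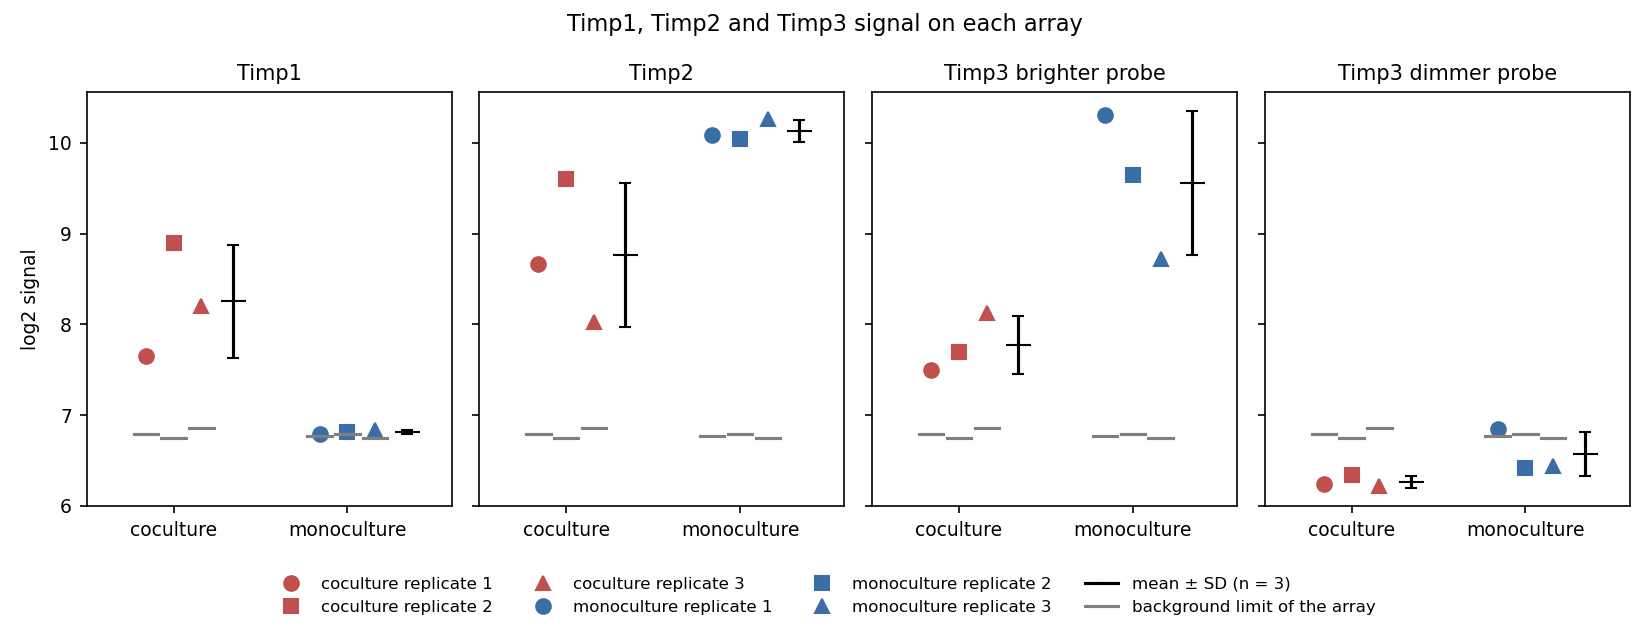
Log2 signal of each Timp probe on each array (vertical axis), coculture in red and monoculture in blue, with the replicate number shown by the shape, the group mean ± SD (n = 3) in black and the background limit of each array as a grey line. The Timp1 cocultures lie between 7.65 and 8.90 above monocultures next to the background limit, and the groups of Timp2 and of the brighter Timp3 probe are separated the other way.

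Replicates of Timp1 and Timp2 were spread widely in coculture, and those of Timp3 in monoculture. Over probes above background on all 3 arrays of a group, the median SD was 0.14 in coculture (13720 probes) and 0.13 in monoculture (14399 probes). The coculture SD of Timp1 stood at percentile 98.0 of such probes and that of Timp2 at percentile 99.0, so that both varied more between cocultures than most probes. For the brighter Timp3 probe, the coculture SD was at percentile 88.9 and the monoculture SD at percentile 99.4. The monoculture SD of Timp2 was at percentile 45.3, and that of Timp1 at percentile 3.67, where the signals were next to the limit. The 3 genes did not follow 1 order across the cocultures. Timp1 was highest in replicate 2 and lowest in replicate 1. Timp2 was highest in replicate 2 and lowest in replicate 3, and the brighter Timp3 probe was highest in replicate 3 and lowest in replicate 1. Coculture replicate 2 thus held the largest Timp1 signal together with the Timp2 signal nearest to monoculture.

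The groups did not overlap for any of the 4 probes, so leaving out a single array could not turn a direction. Only the size of the difference is read here. Without coculture replicate 2, the difference was 1.11 for Timp1, -1.79 for Timp2, -1.75 for the brighter Timp3 probe and -0.34 for the dimmer one. Over all 6 arrays left out in turn, the difference of Timp1 ran between 1.11 and 1.74. That of Timp2 ran between -1.79 and -0.997, the second value without coculture replicate 3. That of the brighter Timp3 probe ran between -2.20, without monoculture replicate 3, and -1.42, without monoculture replicate 1.

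**Figure D2:**
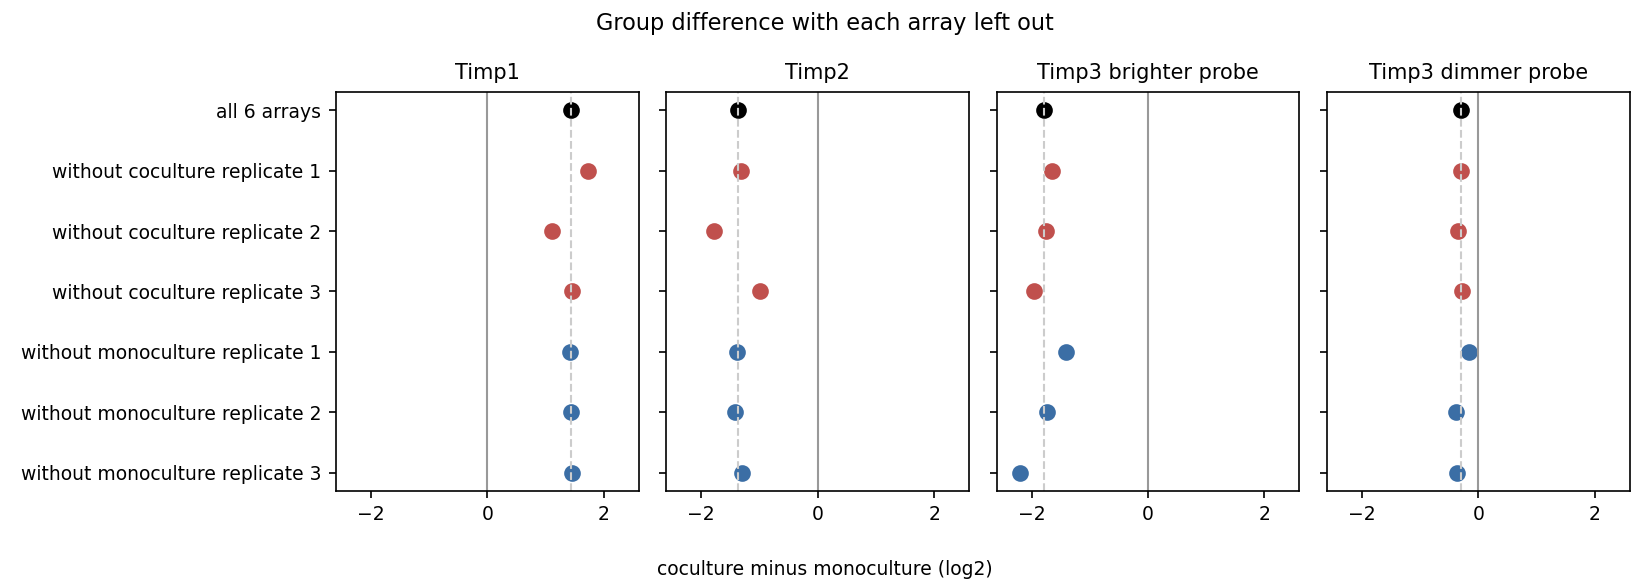
Difference between group means, coculture minus monoculture on the log2 scale (horizontal axis), for each Timp probe with all 6 arrays (black) and with 1 coculture array (red) or 1 monoculture array (blue) left out. The dashed line marks the value with all arrays. No point crosses 0, which is given in advance where the groups do not overlap.

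A limma test over all 46628 probes, adjusted by Benjamini and Hochberg, called a probe changed where the adjusted p was under 0.05 and the groups differed by over 1.5-fold. At this threshold 1 of the 4 Timp probes was called, that of Timp1, where 3.65% of all probes were called, 1.73% higher and 1.93% lower. Timp1 was called in 6 of 12 other settings, Timp2 in 2 of 12, the brighter Timp3 probe in 5 of 12 and the dimmer one in 0 of 11. Since this contrast also chose the genes, nothing is read from these counts.

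The nearest profiles across the 6 arrays were sought among 3940 named genes above background on at least 3 arrays. Likeness was the root mean square distance between log2 profiles, each centered on its own mean, and the arrays share the contrast between the groups. Genes were picked for likeness over these same arrays, so a shared order of replicates is favored by the choice. Nothing is read from such an order. For Timp1 the nearest profiles were those of Selenbp1 (distance 0.20, r = 0.98), a selenium-binding protein, Rasgrp1, an activator of Ras, and Pfkl, a glycolytic enzyme. Jak3, a kinase of cytokine receptors, and Metrn, a secreted protein, followed at distances of 0.26 and 0.30. Selenbp1 had log2 signals of 10.55, 11.89 and 11.33 in coculture, against 9.75, 9.34 and 9.96 in monoculture, with the same order of cocultures as Timp1.

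For Timp2 the nearest profiles were those of Cxcl16, a membrane-bound chemokine, Tlr13, a receptor for bacterial RNA, Marcks, a substrate of protein kinase C, Lrp1 and Rgl1. Cxcl16 was at a distance of 0.14 (r = 0.99) and had 9.48, 10.19 and 8.50 in coculture, against 10.69, 10.67 and 11.16 in monoculture. All 5 of these genes were highest in replicate 2 and lowest in replicate 3 among the cocultures, as was Timp2. Lrp1, at a distance of 0.21, is also on the list of TIMP receptors.

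For the brighter Timp3 probe the nearest profiles were those of Il4i1, an amino acid oxidase, Itga2b, Slc14a1, a urea transporter, Atp1b1, a subunit of the sodium pump, and Cd72, a coreceptor of B cells. Itga2b, the megakaryocyte integrin CD41, was at a distance of 0.31 (r = 0.96). It had 7.02, 7.77 and 7.97 in coculture, against 10.27, 9.57 and 9.29 in monoculture, with the same order of arrays within each group as Timp3.

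**Figure D3:**
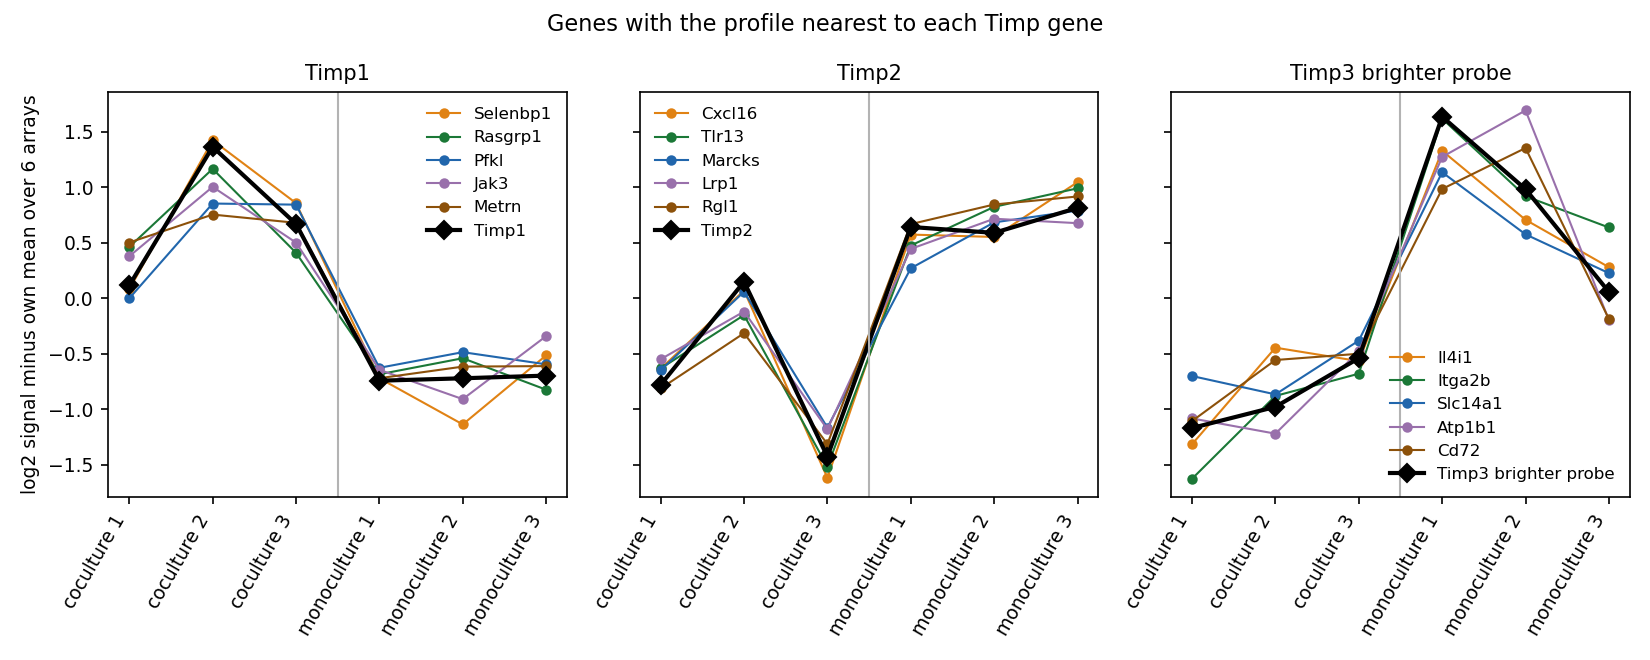
Log2 signal minus its own mean over the 6 arrays (vertical axis) for Timp1, Timp2 and the brighter Timp3 probe (black) and the 5 named genes nearest to each (colors), with cocultures left and monocultures right of the grey line. The profiles nearest to Timp2, which were chosen for likeness over these arrays, share its coculture peak in replicate 2 and its low in replicate 3.

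Most genes of the matrix metalloproteinase, ADAM and ADAMTS families with a named probe were at background. Whether TIMPs inhibit each of them is not given here. The share of named genes called by their brightest probe was 5.79%, 2.98% higher and 2.81% lower. Of the named genes above background on at least 3 arrays, 11.9% were called, 6.12% higher and 5.79% lower. The median difference over all named genes was 0.0037. Of 23 listed matrix metalloproteinases, 7 had a probe with their gene ID, 2 of these were above background and none was called by limma. An unadjusted p under 0.05 was found for 3, but the share of all named genes with such a p was not counted. Nothing is therefore read from that number. The median difference of the 7 was -0.03. Mmp12, the elastase of macrophages, had log2 signals of 7.83, 8.10 and 7.34 in coculture, against 8.17, 8.78 and 8.51 in monoculture. Its difference was -0.73 (SE 0.23, adjusted p = 0.145), and that of Mmp19 was 0.41 (SE 0.14, adjusted p = 0.173). Mmp2, Mmp8, Mmp9, Mmp13 and Mmp14 were not analysed here, since no probe carries their gene ID.

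Among ADAM and ADAMTS metalloproteinases, the membrane-bound sheddases and the matrix proteases related to them, 17 of 32 had a probe and 14 of these did not exceed background on any array. Adam19, a sheddase of neuregulins, fell and was the only 1 called in either direction. It had log2 signals of 6.50, 6.81 and 7.07 in coculture, against 7.87, 8.35 and 8.25 in monoculture, a difference of -1.36 (SE 0.18, adjusted p = 0.0104). Adam17, the sheddase that Timp3 inhibits, had 10.33, 10.42 and 10.03 in coculture, against 10.54, 10.55 and 11.09 in monoculture. The groups did not overlap, but the difference of -0.46 (SE 0.18, adjusted p = 0.227) did not pass. Adam10 was at background, and the median difference of the 17 genes was -0.01.

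Of 17 other inhibitors and activators, 3 had a probe and none was called. An unadjusted p under 0.05 was found for 1, again without a share over all named genes to set it against. Reck, a membrane-anchored inhibitor of matrix metalloproteinases, had a difference of -0.07 (SE 0.14, adjusted p = 0.867). Timp4, the fourth member of the family, was not analysed here.

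Several surface proteins that bind TIMPs, or act beside those that do, were lower in cocultured SC. Of 17 listed, 9 had a probe, 4 fell and none rose, and the median difference of the 9 was -0.75. Of all named genes 2.81% were called lower, and 5.79% of those above background on at least 3 arrays. The median difference over all named genes was 0.0037. Cd63, a tetraspanin that binds TIMP1 on human cells, had log2 signals of 13.33, 13.42 and 13.30 in coculture, against 14.34, 14.44 and 14.37 in monoculture. Its difference of -1.03 (SE 0.05, adjusted p = 0.000658) kept its call in 13 of 13 other settings. The tetraspanins Cd151 and Cd82 also fell, by 0.90 (SE 0.11, adjusted p = 0.00879) and by 0.78 (SE 0.14, adjusted p = 0.029). A second Cd151 probe fell by 1.02 (adjusted p = 0.0121).

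Lrp1, an endocytic receptor that takes up TIMPs and their complexes with proteases, had log2 signals of 7.95, 8.38 and 7.32 in coculture, against 8.95, 9.22 and 9.18 in monoculture. It fell by 1.23 (SE 0.25, adjusted p = 0.0417). The call of Lrp1 was lost without coculture replicate 1 or without any 1 of the monocultures, and that of Cd82 without coculture replicate 1 or 3 or monoculture replicate 1 or 3. The adjusted p reached 0.332 for Lrp1 and 0.215 for Cd82 over all settings. Cd74, a receptor for Mif that also binds TIMP1 on human cells, ran between 11.24 and 13.39 in coculture and between 12.82 and 13.32 in monoculture, and did not pass (adjusted p = 0.546). Cd44, a hyaluronan receptor, was at background, and Itgb1 was not analysed here.

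**Figure D4:**
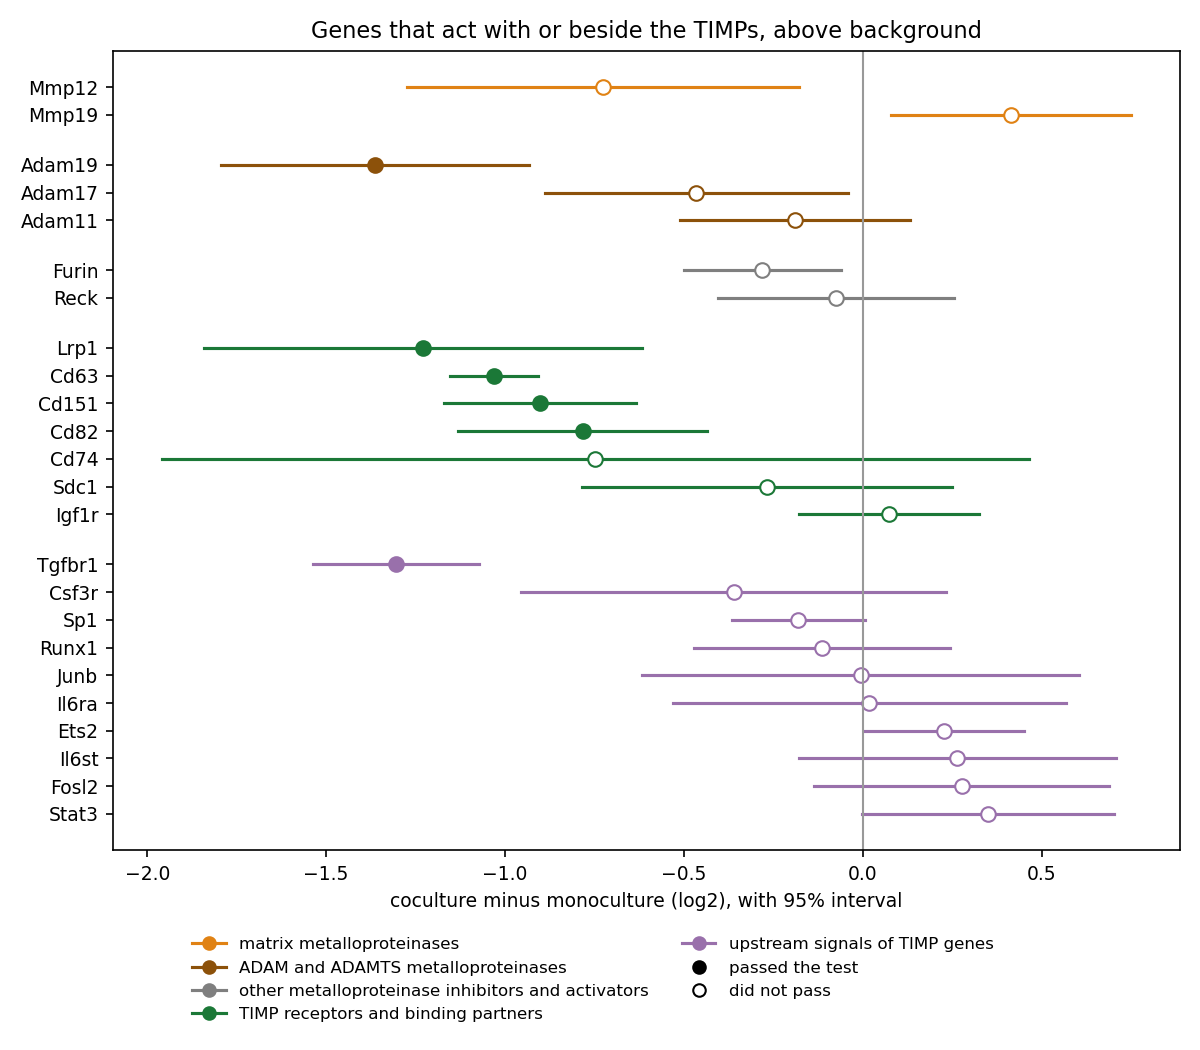
Difference between group means, coculture minus monoculture on the log2 scale, with its 95% interval (horizontal axis) for each gene above background in the lists of metalloproteinases, inhibitors, TIMP partners and upstream signals. Filled points passed the limma test over all probes, and these 6 genes, Adam19, Lrp1, Cd63, Cd151, Cd82 and Tgfbr1, all lie below 0.

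Of 30 listed genes of signals known to regulate TIMP genes, 15 had a probe with their gene ID, and of these 1 fell, none rose and the median difference was 0.01. Tgfbr1, the type I receptor of TGF-beta, had log2 signals of 10.35, 10.36 and 10.22 in coculture, against 11.45, 11.81 and 11.59 in monoculture. Its difference was -1.30 (SE 0.10, adjusted p = 0.00189), and its other probe was near background on every array, with a difference of -0.10. Stat3, a transcription factor downstream of interleukin 6, had differences of 0.35 (adjusted p = 0.278) and 0.51 (adjusted p = 0.0614) on its 2 probes. Il6st, the receptor chain gp130, had a difference of 0.26 (adjusted p = 0.562). Socs3 and Tgfb1 carry no gene ID on a probe and were not analysed here. Socs3 is in the supplementary list of rises by which the Timp1 probe was named, so the count of 0 rises does not cover it.

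Some Timp genes lie inside synapsin genes, which encode proteins of synaptic vesicles. By the RefSeq annotation Syn1 holds Timp1, and its probe was at background on all 6 arrays, with signals of 6.45 to 6.61. Syn3, which holds Timp3, and Cep295nl, which lies within Timp2, were not analysed here. Whether the array tells apart transcripts of overlapping genes by strand is not given in the sources used here.

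Some macrophage markers, and the 2 megakaryocyte markers with a named probe, were lower in cocultured SC, as Timp2 and Timp3 were. Of 9 named monocyte and macrophage markers, 3 fell, Gpnmb, Cd68 and Mertk, and none rose, while 6 did not pass. Among all named genes 2.81% were called lower, and 5.79% of those above background on at least 3 arrays. Cd68, a lysosomal protein of macrophages, had log2 signals of 10.96, 11.30 and 10.19 in coculture, against 12.94, 12.85 and 12.82 in monoculture, with the order of cocultures seen for Timp2. Gpnmb, a macrophage glycoprotein, had 10.78, 10.32 and 7.97 in coculture, against 14.30, 14.43 and 14.24 in monoculture. Its cocultures were highest in replicate 1 and so did not have the order of Timp2. Lyz2, the lysozyme of myeloid cells, was bright in both groups and did not pass (-0.14, adjusted p = 0.313). The summed linear signal of the 9 was 25105 to 33487 in coculture and 58015 to 61310 in monoculture. Gpnmb carried much of this gap, and without it the sum was 24854 to 32206 in coculture and 37818 to 40813 in monoculture. Of 13 listed megakaryocyte markers, 2 had a named probe, Itga2b and Gp1bb. Both fell, and their summed signal was 233 to 373 in coculture and 1008 to 2415 in monoculture. Gp1bb had 6.69, 6.71 and 6.93 in coculture, against 10.21, 9.06 and 8.58 in monoculture. Among the monocultures it was highest in replicate 1, as was the brighter Timp3 probe. In coculture Gp1bb exceeded the background limit only in replicate 3, so its order there is not read. Nothing is read from an order of replicates that a marker shares with a Timp probe. The part of these cells in the signals of Timp2 and Timp3 was not tested.

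The other blood cell lists had 1 call among genes with a named probe. Of 6 named progenitor markers none was called, and their summed signal was 7795 to 9418 in coculture and 6438 to 7412 in monoculture. Lmo2, a regulator of blood stem cells, had log2 signals of 12.04 to 12.46 in coculture and 12.27 to 12.31 in monoculture. Prom1, the surface protein CD133, was at 11.64 to 11.96 in coculture and 9.92 to 11.04 in monoculture, a difference of 1.22 (SE 0.27, adjusted p = 0.0534). Without Prom1 the summed signal overlapped between the groups, at 4613.8 to 6052.3 in coculture and 5308.5 to 5468.3 in monoculture. Hoxa9, a homeobox gene of progenitors, had a difference of 0.34 (SE 0.07, adjusted p = 0.0324), under the fold threshold. The other 3, Mecom among them, were at background, and Kit, by which the cells were selected, was not analysed here. Of 4 named granulocyte markers, Elane rose by 0.59 (SE 0.07, adjusted p = 0.00797) and none fell, and their summed signal was 71515 to 83098 in coculture and 61579 to 74561 in monoculture. Ctsg, a listed granulocyte marker without a gene ID on a probe, is in the supplementary list of rises, so this count does not cover it. Of 3 named mast cell markers none was called, but their summed signal was 305 to 530 in coculture and 626 to 1046 in monoculture. Fcer1a, a chain of the IgE receptor, was the 1 above background on at least 3 arrays, with a difference of -1.28 (SE 0.44, adjusted p = 0.181). Of 2 named erythroid markers none was called, and their summed signal overlapped between the groups, at 224 to 1075 in coculture and 343 to 1925 in monoculture.

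Of 14 named fibroblast and stroma markers, 11 were at background on all arrays, Col1a1 and Col3a1 among them. Col5a1, a fibrillar collagen, was higher by 0.99 (SE 0.10, adjusted p = 0.00441) and was the 1 marker of this list that passed. The summed signal of the 14 was 4351 to 5453 in coculture and 4593 to 5726 in monoculture, with S100a4, which macrophages also express, as the brightest. Without S100a4 it was 1202 to 1311 in coculture and 1086 to 1145 in monoculture, with Col5a1 still in the sum. Without Col5a1 alone the sums overlapped, at 4069 to 5156 in coculture and 4464 to 5581 in monoculture. A sum without both was not taken. Of 4 named endothelial markers, Egfl7 rose by 1.63 (SE 0.21, adjusted p = 0.0104), and the summed signal of the 4 was 1090 to 1681 in coculture and 1345 to 1367 in monoculture. Without Egfl7 the sum was lower in coculture, at 809 to 1173 against 1214 to 1255 in monoculture. Pecam1, Eng and Emcn had differences of -0.52, -0.31 and 0.12, and none of these passed. Of 7 named cardiomyocyte markers none was called and 5 were at background, Myh6 and Myh7 among them. Their summed signal was 724 to 742 in coculture and 695 to 721 in monoculture. Without Mybpc3, which differed by 0.21 (adjusted p = 0.262), the sums overlapped, at 576.8 to 615.6 in coculture and 580.6 to 608.5 in monoculture.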

How the data were processed

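Beads were read on Illumina Mouse Sentrix-6 arrays by the authors, who dropped outlier beads, took the mean signal per probe and applied a quartile normalization. The deposited values are log2 signals with the same range on all 6 arrays, between 5.81 and 14.85. A second table was not used, because its 12 value columns match no label. Probes were named by the gene ID in the probe name through RefSeq symbols of GRCm38.p6, which named 9796 probes of 8102 genes. The array gives no genome build, so no coordinates are printed. The difference between groups was fitted in limma 3.58.1 (R 4.3.3) with an empirical Bayes test, the Benjamini-Hochberg adjustment ran across the whole table, and the fit was tested on simulated data. A gene counted by its brightest probe.

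The Timp genes and all lists were chosen with earlier results of these data known. The text names all Timp probes, the 5 genes nearest to each, all called genes of the pathway lists, further genes fixed by name and up to 4 measured genes of each marker list. Mertk, outside this rule, was named after its values were seen. The SE of list genes is limma's moderated one, and that of Timp probes is from the group SDs. Cell cultures were independent, and the number of arrays, 3 per group, limits the precision. Replicate numbers were not treated as pairs: the deviations of same-numbered arrays had correlations of -0.11, -0.11 and -0.10. Alternatives were each array left out, array weights, centering on the brightest probes, background subtraction, a replicate block, another variance prior, a filter on dim probes, no fold threshold and a higher background limit.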

Additional observations from a re-analysis of the deposited data

How the results depend on the processing

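No alternative that was run turned the direction of a Timp probe or of the 6 called genes of the pathway lists. The groups did not overlap for any of these, so leaving out a single array could not turn it. The replicate block keeps the difference by design. Called genes of the marker lists were not refitted. The values of Timp1, Timp2 and both Timp3 probes moved by less than the spread between replicates in every setting except background subtraction with an offset of 50 on the linear scale, which gave 2.16 for Timp1 and -0.0565 for the dimmer Timp3 probe. With arrays left out in turn, the difference was 1.11 to 1.74 for Timp1, -1.79 to -0.997 for Timp2, -2.20 to -1.42 for the brighter Timp3 probe and -0.38 to -0.17 for the dimmer one. Over all probes, 806 were higher and 898 lower in coculture. Background subtraction left 37 higher and 82 lower, an adjusted p alone called 1514 higher and 1500 lower, and leaving out arrays gave 433 to 922 higher and 583 to 907 lower. The lowest numbers came without monoculture replicate 1 for the higher probes and without coculture replicate 1 for the lower ones. The 4 TIMP partners that fell became 1 with background subtraction, 2 with the replicate number as a block and 2 to 4 with arrays left out. Background subtraction ended the calls of Adam19 and Tgfbr1, so that 0 ADAM and ADAMTS genes and 0 upstream genes were called lower. The block also ended the call of Timp1, with its difference at 1.44, and those of Lrp1 and Cd82. Timp1 was not called with background subtraction, without coculture replicate 3 or without any 1 of the monocultures. Since this contrast also chose Timp1, nothing is read from its calls. With the background limit raised by 0.5, the cases of a Timp probe at background throughout a group numbered 3 in place of 1, namely Timp1 in monoculture and the dimmer Timp3 probe in both groups. The causes were not tested. Signals near background, those of Timp1 in monoculture and of the dimmer Timp3 probe, limit what a fold change can show.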
